A study of Homo sapiens with 6 samples.

Results

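The death receptors and the first steps below them were represented on the array by 6 genes: the receptors FAS, TNFRSF10B, TNFRSF1A and TNFRSF25, the initiator caspase gene CASP8, and CFLAR, which encodes the CASP8 inhibitor c-FLIP. They were chosen by symbol, as the death receptors in the deposited table of 89 genes together with CASP8 and its regulator, and 6 of the 89 genes belong to this set. The RNA was that of Panc-1, a cell line from a human pancreatic cancer, and was measured by real-time PCR on a Cancer PathwayFinder array, with 6 plates in all. The study asked which messages change when CaSm, the mRNA decay factor encoded by LSM1, is overexpressed. The level of LSM1 was not analysed here.

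The induced condition was tet-on CaSm cells with doxycycline at 1 μg/ml, on 2 plates. The driver control was tet-on driver cells with the same dose, on 2 plates, and the non-induced control was tet-on CaSm cells without doxycycline, also on 2 plates. All were cultured for 4 weeks. Every condition carried the pRetro-X Tet-on-Advanced regulator under G418 selection, and the driver and the tet-on CaSm cells were each a stable pool rather than a single clone. Tet-on CaSm cells came from a subset of the driver pool and carried in addition full-length human CaSm under a tight tet-responsive promoter, with puromycin selection. Induced and driver cells therefore differ in the construct and its selection as well as in CaSm induction, and these cannot be told apart in that comparison. Induced and non-induced cells differ in doxycycline and in CaSm induction, which cannot be told apart either. Non-induced and driver cells differ in doxycycline as well as in the construct and its selection, and these cannot be told apart between the 2 controls. Whether plates of the same condition had cultures of their own is not stated in the labels, so the p-values below measure only the spread between plates, which may be technical.

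Death receptors are members of the TNF receptor superfamily that carry a cytoplasmic death domain. When their ligands bind, FAS and the TRAIL receptor TNFRSF10B recruit the adaptor FADD and procaspase 8, and active CASP8 then cleaves the executioner caspases. TNFRSF1A and TNFRSF25 recruit the adaptor TRADD first and signal mainly to NF-kB, and c-FLIP resembles CASP8 but has no protease activity and limits its activation at the receptor.

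The deposited values were threshold cycles (Ct), given by the authors without normalization. To obtain ΔCt, the plate's own mean Ct of 3 normalizing genes (B2M, HPRT1, GAPDH) was subtracted, so a lower ΔCt stands for more transcript and 1 cycle for about 1 log2 unit. Over the 6 genes Ct lay between 22.6 and 30.7, and all 6 were under the limit of 35 on every plate, as were 79 of the 89 genes. The mean Ct of the 3 normalizing genes lay between 19.7 and 20.3. Plates of 1 condition differed by a median of 0.34 cycles in induced cells, 0.207 in non-induced cells and 0.263 in driver cells over those 79 genes. In induced cells 78.5% of them were higher on replicate 1, so genes of 1 plate do not err independently. CDKN2A, which Panc-1 is known to have lost by homozygous deletion, had a late Ct, between 32.1 and 33.9, that was still under the limit on every plate. In induced relative to driver cells its log2 fold change was -0.84, and the plates did not overlap, as for 54.1% of all genes tested. The limma p was 0.0487 before adjustment and 0.119 after, so CDKN2A did not pass. Its 2 plates stood 0.84 cycles apart in induced and 0.79 in driver cells. Late signal of a gene held to be absent can thus vary by about that much between plates of 1 condition. Of the markers of other cell types, GZMA of cytotoxic lymphocytes had a Ct of 34.9 to 37.2, SYK of blood cells 34.0 to 35.3 and TEK of endothelium 33.0 to 40, and 0 of these 3 passed the test in any comparison below, with 0 also before adjustment; GZMA was at the limit on the induced and non-induced plates and was not tested between them.

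FAS was highest in driver cells. Its ΔCt was 7.34 and 7.60 in driver cells, 8.81 and 8.31 in non-induced cells and 8.79 and 8.85 in induced cells, plate by plate. Both driver plates lay above every plate of tet-on CaSm cells, while induced and non-induced plates overlapped. The means were 7.47 ± 0.19 in driver, 8.56 ± 0.35 in non-induced and 8.82 ± 0.04 in induced cells (SD, n = 2 each). FAS, the receptor for FAS ligand, therefore fell by 1.35 log2 units in induced cells relative to driver cells, which is 2.55-fold, with a standard error of 0.26, a 95% interval of -1.92 to -0.78 and an adjusted p of 0.00307 from limma. It also fell in non-induced relative to driver cells, by 1.09 log2 units or 2.13-fold (SE 0.26, limma adjusted p = 0.0284). Between induced and non-induced cells its log2 fold change was -0.26, with a 95% interval of -0.82 to 0.31 and a limma adjusted p of 0.520. Against both controls pooled it was -0.80 (SE 0.22, 1.74-fold, limma adjusted p = 0.0201), although the plates overlapped. This last value averages the driver and the non-induced controls, which stood 1.09 log2 units apart. The authors state that the FAS decrease they saw on this array relative to driver cells did not hold in their separate real-time PCR.

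The lower FAS of non-induced cells depended on each plate compared. Where 1 plate of a condition was left out, the remaining plate was assumed to vary like the others. The limma adjusted p was 0.317 without non-induced replicate 1, with a log2 fold change of -0.85, and 0.0539 without non-induced replicate 2, with -1.34. Without driver replicate 2 the adjusted p was 0.112 with a log2 fold change of -0.96, and without driver replicate 3 it was 0.0738 with -1.22. The call against both controls was likewise lost in limma without induced replicate 1 (-0.83, adjusted p = 0.0583), induced replicate 2 (-0.77, 0.0872), driver replicate 2 (-0.74, 0.0675) or non-induced replicate 2 (-0.68, 0.0847).

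**Figure D1:**
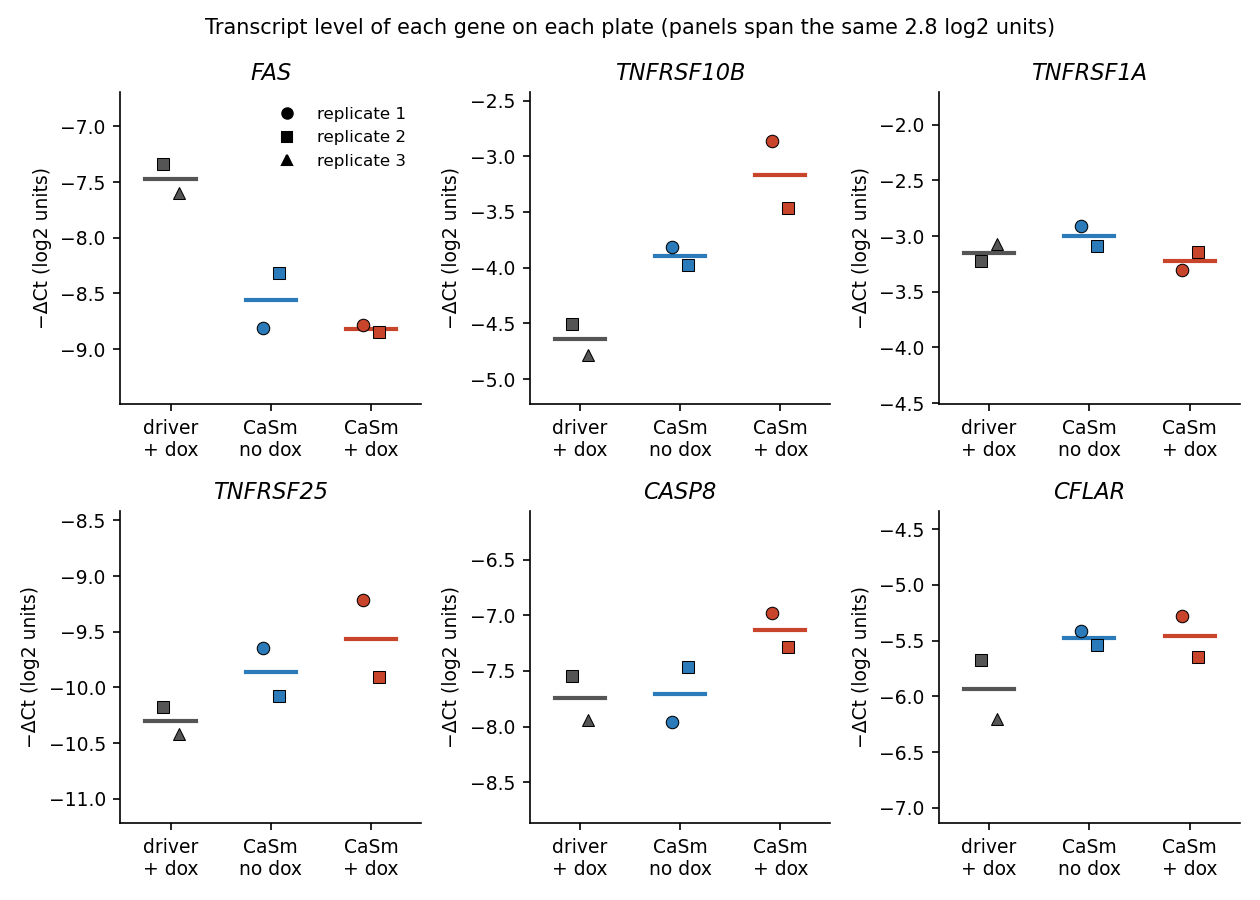
Transcript level of each of the 6 genes on each plate, as -ΔCt in log2 units on the vertical axis, so that higher points mean more transcript, with the 3 conditions on the horizontal axis. Symbols mark the replicate and horizontal lines the mean of 2 plates. FAS is highest on both driver plates, TNFRSF10B steps up from driver to non-induced to induced cells without overlap, and TNFRSF1A stays within a narrow band.

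TNFRSF10B, a receptor for TRAIL, was highest in induced cells and lowest in driver cells. Its ΔCt was 4.51 and 4.78 in driver cells, 3.82 and 3.97 in non-induced cells and 2.87 and 3.47 in induced cells, plate by plate. No plates of different conditions overlapped. Replicate 1 was the higher of the induced plates by 0.60 cycles, compared with the plate-wide median of 0.34 cycles in the same direction. The means were 4.64 ± 0.19, 3.90 ± 0.11 and 3.17 ± 0.42 in driver, non-induced and induced cells (SD, n = 2 each).

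TNFRSF10B rose by 1.48 log2 units, or 2.78-fold, in induced relative to driver cells (SE 0.27, 95% interval 0.88 to 2.07, limma adjusted p = 0.00247). It also rose against both controls, by 1.10 log2 units or 2.15-fold (SE 0.23, limma adjusted p = 0.00617). That standard error again leaves out the gap between the controls. The authors list the same fold change for TNFRSF10B against both controls, with a p-value under 0.05. With the 3 normalizing genes, the rise against driver cells splits almost evenly between 2 steps. From driver to non-induced cells it was 0.75 log2 units, with a 95% interval of 0.15 to 1.34. From non-induced to induced cells it was 0.73, with an interval of 0.13 to 1.32. The split depended on the scaling: the steps were 0.205 and 1.025 with the plate median and 0.685 and 0.325 with B2M alone. With the 3 normalizing genes neither step passed the adjusted threshold in limma (adjusted p = 0.142 and 0.0722). Neighbouring conditions in this order were thus not separated by that test although their plates did not overlap. Without induced replicate 2 the step from non-induced to induced cells was 1.03 log2 units and passed, with a limma adjusted p of 0.0389, and without induced replicate 1 it was 0.43, with an adjusted p of 0.361. Without induced replicate 1 the value against both controls was 0.80 and no longer passed, with a limma adjusted p of 0.0560.

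TNFRSF1A, the main receptor for TNF, varied least among the 6 genes. Its ΔCt was 3.23 and 3.07 in driver cells, 2.91 and 3.09 in non-induced cells and 3.31 and 3.15 in induced cells, plate by plate. The values of driver cells overlapped those of both other conditions, and the non-induced plates lay just above the induced ones. The log2 fold change was -0.08 in induced relative to driver cells, with a 95% interval of -0.60 to 0.44, and -0.23 relative to non-induced cells, with an interval of -0.75 to 0.29 (limma adjusted p = 0.823 and 0.520).

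TNFRSF25, a death receptor for the TNF family cytokine TNFSF15, was the latest of the 6 to amplify. Its ΔCt was 10.18 and 10.42 in driver cells, 9.65 and 10.07 in non-induced cells and 9.22 and 9.91 in induced cells, plate by plate. Every plate of tet-on CaSm cells lay above both driver plates, and induced and non-induced plates overlapped. In induced relative to driver cells the log2 fold change was 0.74, or 1.67-fold, with a 95% interval of 0.10 to 1.38 and a limma adjusted p of 0.0886. Without induced replicate 2 it was 1.08 and passed, with a limma adjusted p of 0.0246, and without induced replicate 1 it was 0.39, with an adjusted p of 0.414. Relative to non-induced cells it was 0.30 (SE 0.29, limma adjusted p = 0.520).

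CASP8, the initiator caspase of this pathway, had its highest mean in induced cells. Its ΔCt was 7.55 and 7.94 in driver cells, 7.96 and 7.46 in non-induced cells and 6.98 and 7.29 in induced cells, plate by plate. Both induced plates lay above all 4 control plates, and the controls overlapped each other. Against both controls the log2 fold change was 0.60, or 1.51-fold, with a 95% interval of 0.07 to 1.12 and a limma adjusted p of 0.0906. It was 0.61 relative to driver cells and 0.58 relative to non-induced cells (SE 0.27 each, limma adjusted p = 0.119 and 0.160). Between the controls it was 0.03, with an interval of -0.57 to 0.63. The values of CASP8 thus did not pass the adjusted threshold in any comparison.

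CFLAR gave a different order from CASP8, with driver cells lowest and both tet-on CaSm conditions close together. Its ΔCt was 5.68 and 6.20 in driver cells, 5.42 and 5.54 in non-induced cells and 5.28 and 5.65 in induced cells, plate by plate. Both tet-on CaSm conditions lay above the driver plates on every plate, 1 induced plate only just, and overlapped each other. The log2 fold change in induced relative to driver cells was 0.48 with a 95% interval of -0.11 to 1.07, and in non-induced relative to driver cells 0.46 with an interval of -0.13 to 1.05 (limma adjusted p = 0.223 and 0.335). Between induced and non-induced cells it was 0.02, with an interval of -0.57 to 0.61. CFLAR and CASP8 lie close together in the genome, with CASP10 as the 1 protein-coding gene between them in the RefSeq annotation of GRCh38.p14.

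**Figure D2:**
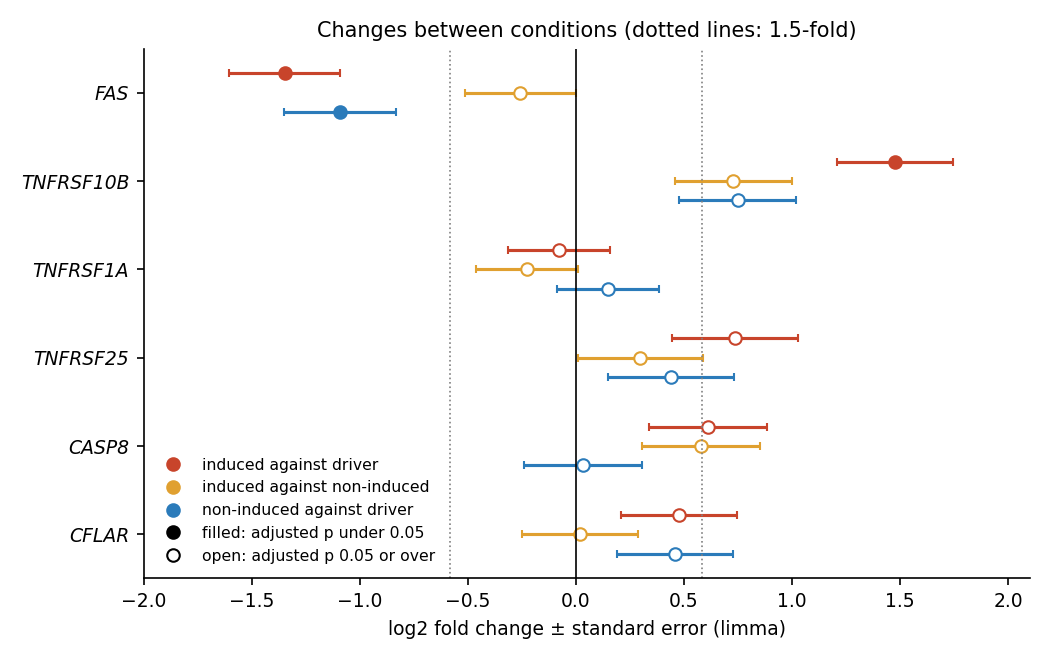
Log2 fold change of each of the 6 genes on the horizontal axis in 3 comparisons, marked by colour, with the standard error from limma as bars; values above 0 are higher in the condition named first, and filled points have an adjusted p under 0.05. FAS lies at -1.35 and -1.09 in the comparisons with driver cells, both filled, and TNFRSF10B lies above 0 in all 3, filled for induced against driver cells only.

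As a set, 2 of the 6 genes had a limma adjusted p under 0.05 in induced relative to driver cells, TNFRSF10B higher and FAS lower, when 23.5% of all 85 genes tested did. Before adjustment the number was 4 of 6, against 35 of 85 genes, and the means of 4 of 6 differed by at least 1.5-fold, against 37.6% of all genes. Plates did not overlap for 5 of 6, against 54.1%. The median log2 fold change of the 6 was 0.54, compared with -0.08 over all genes tested.

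In induced relative to non-induced cells 0 of the 6 passed in limma, when 25.3% of all 83 genes tested did. Only TNFRSF10B had an unadjusted p under 0.05 there, as did 28 of 83 genes, and it was also the only 1 of the 6 with at least a 1.5-fold difference, against 38.6% of genes. For 3 of 6 the plates did not overlap (61.4% of all genes), namely TNFRSF10B, CASP8 and TNFRSF1A. Against both controls 2 of 6 passed, again TNFRSF10B and FAS, compared with 22.4% of genes. In non-induced relative to driver cells FAS was the 1 of 6 that passed, when 7.06% of genes did, and plates of 4 of 6 did not overlap against 50.6% of genes. These comparisons share plates: the induced plates enter 3 of them, and the value against driver cells is the sum of the values against non-induced cells and of non-induced against driver cells.

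**Figure D3:**
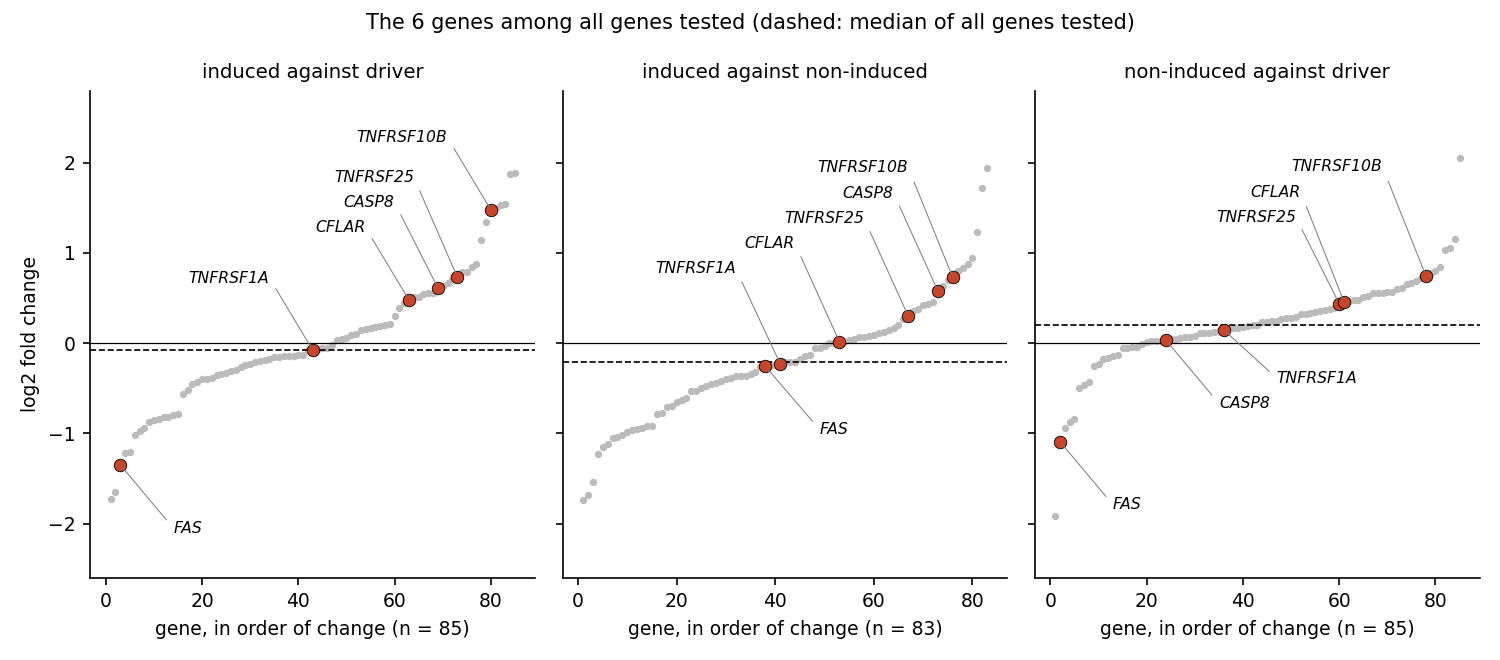
All genes tested, ordered by log2 fold change on the vertical axis, in 3 comparisons; red points mark the 6 genes and the dashed line the median of all genes tested. FAS is the third lowest of 85 genes against driver cells and near the middle of 83 against non-induced cells, while TNFRSF10B is sixth and eighth from the top.

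Because FAS and TNFRSF10B lay on opposite sides, their Ct were also set against each other on the same plate, which needs no normalizing gene. Ct of FAS minus Ct of TNFRSF10B was 2.83 and 2.82 in driver cells, 4.99 and 4.34 in non-induced cells and 5.92 and 5.38 in induced cells. It was larger on every non-induced plate than on the driver plates, and larger again on the induced plates. The size of this difference depends on both assays, so only its change between conditions is read as a change in the ratio of TNFRSF10B to FAS transcript. That ratio was 7.09-fold higher in induced than in driver cells, 3.58-fold higher in non-induced than in driver cells, and 1.98-fold higher in induced than in non-induced cells. A two-sided exact permutation test gave p = 0.333 for each, which is the smallest value that 2 plates against 2 allow. The pair was compared with results of these data known, so this is a description.

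The ratio of CASP8 to CFLAR was followed in the same way. Ct of CFLAR minus Ct of CASP8 was -1.87 and -1.74 in driver cells, -2.54 and -1.92 in non-induced cells and -1.70 and -1.64 in induced cells. Induced plates had the highest CASP8 relative to CFLAR, but lay only 0.04 cycles above the nearer driver plate. The ratio was 1.10-fold higher in induced than in driver cells and 1.47-fold higher than in non-induced cells. Between the controls it was 1.34-fold lower in non-induced than in driver cells. The exact permutation test gave p = 0.333 for each. This is again the smallest value that 2 plates against 2 allow, so it says nothing of the size of a difference.

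**Figure D4:**
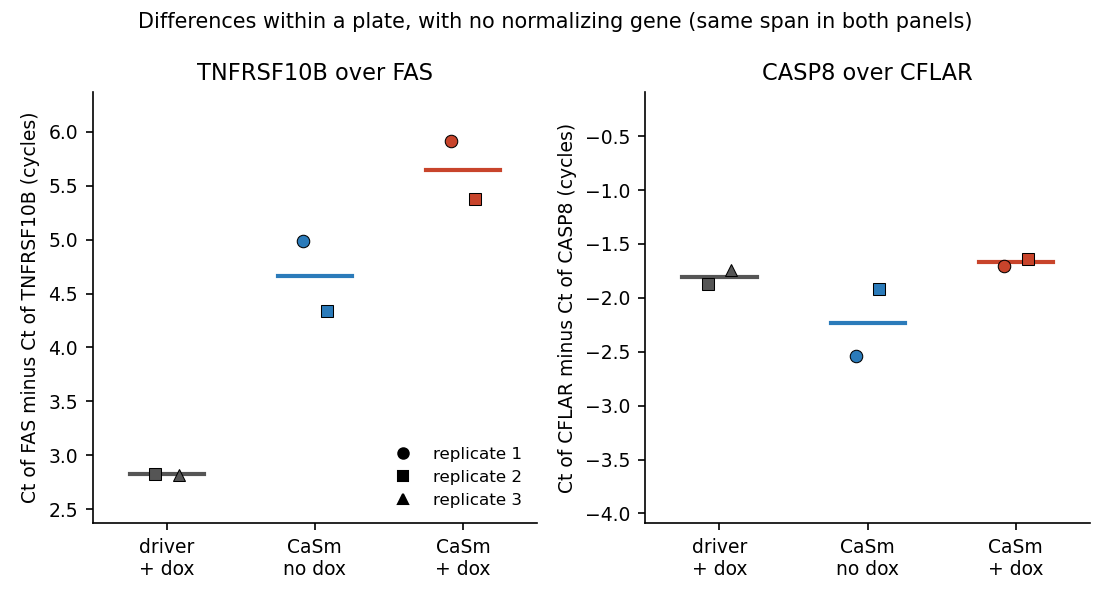
Differences of Ct between 2 genes of the same plate, in cycles on the vertical axis, for TNFRSF10B relative to FAS and CASP8 relative to CFLAR, by condition; points are plates and lines are means of 2 plates. The first lies at 2.82 and 2.83 on the driver plates and at 5.38 and 5.92 on the induced plates, and the second spans -2.54 to -1.64.

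The size of each change depended on the genes used for normalization. In induced relative to driver cells B2M stood at 0.47, HPRT1 at -0.07 and GAPDH at -0.39 log2 units relative to the mean of the 3, so with B2M alone every gene shifts down and with GAPDH alone every gene shifts up by the same amount. Over the 6 scalings tried, FAS lay between -1.82 and -0.96 and TNFRSF10B between 1.01 and 1.87 against driver cells, and both passed in limma under all 6. TNFRSF25 lay between 0.27 and 1.13, CASP8 between 0.15 and 1.01, CFLAR between 0.01 and 0.87, and TNFRSF1A between -0.55 and 0.32. B2M alone put the median of all genes tested at -0.55 and GAPDH alone at 0.32, and the calls over all genes moved from 9 higher and 11 lower to 7 and 37 with B2M and to 24 and 5 with GAPDH. Relative to that median the values cannot change with the scaling, because a scaling moves all genes of a plate by the same amount. They were -1.27 for FAS, 1.56 for TNFRSF10B, 0.82 for TNFRSF25, 0.69 for CASP8 and 0.56 for CFLAR, while TNFRSF1A was itself the gene at the median. Against non-induced cells TNFRSF10B lay between 0.33 and 1.07 and passed under 3 of the 6 scalings, CASP8 lay between 0.18 and 0.92 and passed under 2, and FAS lay between -0.66 and 0.08 and passed under 1.

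**Figure D5:**
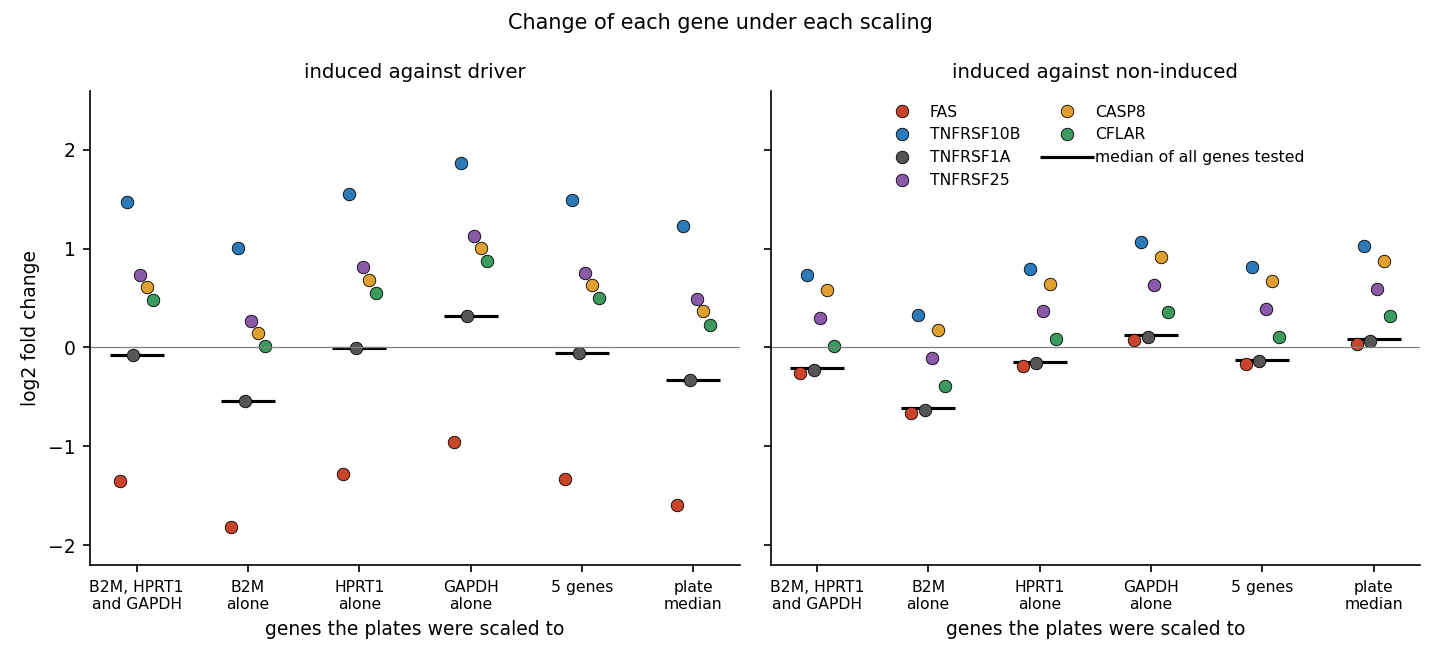
Log2 fold change of the 6 genes under each of 6 ways of scaling the plates, in induced against driver cells and induced against non-induced cells; black bars mark the median of all genes tested. The 6 genes move up and down together with that bar, and FAS stays lowest and TNFRSF10B highest of the 6 in the comparison with driver cells under each scaling. This order is fixed, because each scaling moves all genes of a plate by the same amount.

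TNF was the 1 ligand of these receptors on the array, and it was measured late, with Ct between 32.5 and 35.5. These values lay within or above the range of CDKN2A, 32.1 to 33.9. Whether signal this late reflects TNF transcript was not tested, and this limits every TNF value below. The ΔCt of TNF was 12.51 and 12.25 in driver cells, 14.66 and 13.92 in non-induced cells and 13.57 and 13.13 in induced cells, plate by plate, with non-induced replicate 1 set to the limit of 35. Driver cells were highest and non-induced cells lowest, without overlap. TNF fell by 0.97 log2 units in induced relative to driver cells and by 1.91 in non-induced relative to driver cells, and rose by 0.94 in induced relative to non-induced cells (limma adjusted p = 0.0388, 0.00220 and 0.0415). Because the value on 1 non-induced plate is a limit, the last 2 are uncertain in size. Its receptor TNFRSF1A passed in none of these comparisons.

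The genes on either side of the receptors were counted as lists. Of 5 genes of the mitochondrial arm of apoptosis, BAD, which encodes a BCL2 antagonist, was the 1 that passed against driver cells, when 23.5% of all genes tested did. BAD fell there by 1.22 log2 units (limma adjusted p = 0.00728), and APAF1, BAX, BCL2 and BCL2L1 did not pass. Against non-induced cells BAD and APAF1, the scaffold of the apoptosome, passed, when 25.3% of all genes tested did. They fell by 1.04 and 0.97 log2 units (limma adjusted p = 0.0238 and 0.0377). In non-induced relative to driver cells 0 of 5 passed, when 7.06% of all genes did. At an unadjusted p under 0.05 the number was also 0, against 18 of 85 genes.

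Of 4 genes of the NF-kB arm, TNF was the 1 that passed against driver cells, against non-induced cells and between the controls. The shares of all genes tested that passed were 23.5%, 25.3% and 7.06%. NFKB1, NFKBIA and IL8 passed in none. TNF was counted both as the ligand and in this list.

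The genes whose pattern over the 6 plates was nearest to each of the 6 were found by the root mean square difference of centred -ΔCt among 84 other genes. For FAS they were SERPINB5 and FGFR2, at 0.248 and 0.395 log2 units, when the median distance to all genes was 0.707. SERPINB5 was measured as late as CDKN2A, with Ct between 32.5 and 34.0. Whether its signal reflects transcript was not tested. For TNFRSF10B they were MYC and PLAUR, at 0.112 and 0.210 against a median of 0.694. CFLAR was nearest to MTA1 and PDGFA (0.051 and 0.059 against a median of 0.375). CASP8 was nearest to HTATIP2 and MAP2K1 (0.168 and 0.186 against 0.498), and TNFRSF1A to CDK4 and PDGFB (0.039 and 0.061 against 0.367). The root mean square of TNFRSF1A itself was only 0.126, when that of FAS was 0.607. A gene that hardly varies lies close to any other such gene, so the small distances of TNFRSF1A show no more than that. For TNFRSF25 PDGFA and CFLAR were nearest, at 0.178 and 0.197 log2 units against a median of 0.443. CFLAR was thus the only 1 of the 6 found next to another of them. All of these genes share the same plates and normalizing genes.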

How the data were processed

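RNA was isolated by the authors with the RNeasy Plus kit, reverse transcribed with the RT2 First Strand kit and measured with SYBR Green on a Cancer PathwayFinder PCR array run on a Roche Lightcycler. The authors deposited the Ct of 89 genes on 6 plates, without normalization; how the threshold was set is not given in the sources used here. A second deposited table holds the authors' fold changes, signed and set against driver cells, and was not used. Plates were assigned to conditions from their descriptions, and replicate numbers follow the suffix of their titles, so driver cells have replicates 2 and 3.

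Any Ct over 35 was set to 35, and the plate mean of B2M, HPRT1 and GAPDH was subtracted. A linear model of -ΔCt with a mean for each of 3 conditions was fitted in limma 3.58.1 (R 4.3.3) to all 6 plates, leaving 3 residual degrees of freedom. Variances were moderated by empirical Bayes, and p-values adjusted by Benjamini-Hochberg over the 85 genes tested, or 83 against non-induced cells; the 3 normalizing genes and genes at the limit on every plate compared were left out. Python 3.11.15, numpy 2.4.6, pandas 2.3.3 and matplotlib 3.10.9 were used otherwise. The model was tested on simulated data whose errors were independent between genes, unlike those of these plates, so that test does not cover errors shared by a plate. Thresholds were an adjusted p of 0.05 and a 1.5-fold change. Precision is limited by the number of plates.

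The 6 genes, the lists and the tests were chosen with earlier results of these data known. All 6 genes, TNF, genes of the lists described that passed, the normalizing genes and, for each of the 6, the 2 genes of most similar pattern are named. Alternatives were other normalizing genes, the plate median, a Ct limit of 40, a filter keeping mean Ct below 30, a replicate block, other variance models, a fit to the compared plates alone, linear averages, replicate 2 alone, and leaving out each plate. All 6 symbols matched the RefSeq gene table. The result of 1 further gene list is not reported here.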

Additional observations from a re-analysis of the deposited data

How the results depend on the processing

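In induced relative to driver cells the number of the 6 genes that passed in limma was 2 and became 5 with GAPDH alone and 0 without moderation of the variance, where the adjusted p was 0.072 for FAS and 0.084 for TNFRSF10B. It stayed at 2 or more under the other alternatives tested. Against non-induced cells it was 0 and became 2 with B2M alone (FAS and TNFRSF1A, both lower, when 40 of 83 genes were called lower), 2 with GAPDH alone and with the plate median (TNFRSF10B and CASP8, both higher, when 11 and 13 of 83 genes were), and 1, TNFRSF10B, with 5 normalizing genes, with only genes of mean Ct under 30 and with a variance trend; leaving out single plates gave 0 to 1. Against both controls it was 2 and became 1 with HPRT1 alone, a Ct limit of 40 or a variance trend, and 0 without moderation; leaving out plates gave 0 to 2. There it was 3 with B2M alone, with TNFRSF1A at -0.59 added. In that setting 49 of 85 genes were called lower and the median of all genes tested was -0.58. It was also 3 with GAPDH alone, when 18 of 85 genes were called higher. CASP8 at 0.96 and TNFRSF25 at 0.88 then passed and FAS at -0.44 did not. For non-induced against driver cells it was 1 and became 0 with HPRT1 alone, a Ct limit of 40, the replicate block or no moderation; with a variance trend FAS was lost (adjusted p = 0.0607) and TNFRSF10B passed (0.0220). Leaving out plates gave 0 to 1. Replicate 2 alone, which allows no test, gave 0.03 for CFLAR, 0.26 for CASP8, 0.27 for TNFRSF25, 0.08 for TNFRSF1A, 1.04 for TNFRSF10B and -1.51 for FAS against driver cells.

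Directions reversed only for values that had not passed the test, up to 0.46 in size (CFLAR between the controls). Against driver cells TNFRSF1A was 0.32 with GAPDH alone, and -0.16 to 0.0017 when plates were left out. Against non-induced cells FAS was 0.08 and TNFRSF1A 0.11 with GAPDH alone, 0.04 and 0.07 with the plate median, and TNFRSF25 was -0.11 and CFLAR -0.39 with B2M alone. Against both controls TNFRSF1A was 0.21 with GAPDH alone and CFLAR -0.19 with B2M alone. For non-induced against driver cells the plate median gave -0.40 for TNFRSF1A, -0.11 for TNFRSF25, -0.51 for CASP8 and -0.085 for CFLAR, and CASP8 was -0.03 with B2M alone, -0.036 with 5 normalizing genes and -0.12 with the replicate block. Leaving out plates gave -0.047 to 0.64 for TNFRSF25 and -0.17 to 0.20 for CFLAR against non-induced cells, and -0.21 to 0.28 for CASP8 between the controls. The cause was not tested.

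Whether the replicate numbers pair induced with non-induced plates is not stated in the labels. Their replicate differences correlated at 0.022 across genes. This value cannot decide the question, because a shift common to all genes of a plate leaves it unchanged. The replicate block changed no other call among the 6. The number of all genes called ranged from 5 to 44 against driver cells, 3 to 42 against non-induced cells, 4 to 57 against both controls and 1 to 9 between the controls, where the values reported are 20, 21, 19 and 6.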
